A study of Mus musculus with 2 samples.

Results

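SP1, SP2, SP3, SP4, SP8, KLF4, KLF5, KLF13, KLF14 and KLF16 are 10 of the 579 transcription factor motifs counted in single cells of the embryonic mouse retina. They were chosen by name, as the motifs of the SP factors and of a set of Krüppel-like factors (KLF), and not by a threshold on any measured value. Chromatin accessibility was measured with the droplet-based single-cell assay of 10x Genomics in retinas of wild-type (WT) mouse embryos at stage E14.5. There were 2 replicate libraries, both of that genotype, age and tissue, and no other condition. Whether these are separate animals or litters, or pools of embryos, is not stated in the labels, so SDs and p-values cover no more than the difference between 2 libraries and that may be technical. Gene expression was not measured, so the tissue label could not be set against marker genes.

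The SP and KLF proteins are related zinc finger transcription factors. Their zinc fingers lie near the carboxyl end and contact GC-rich elements: the GC box, first described for SP1, and the CACCC box, first studied in globin genes. GC boxes are frequent in promoters of genes that most cells use, where SP1 and SP3 act in nearly every cell type. Others have narrower roles: SP4 is enriched in neurons, SP8 patterns limb and forebrain, KLF4 is a reprogramming factor that also limits axon growth in retinal ganglion cells, KLF5 promotes proliferation in epithelia, and KLF14 is imprinted. Because their recognition patterns are alike, a motif count cannot name the factor that occupies a site.

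To show the letters such motifs describe, promoter windows of the members' own genes were searched for short letter strings on both strands. The GC box was searched as CCCGCCC. A variant of it was searched as CACGCCC. For the CACCC box the string was CACACCC on either strand. One GC box can overlap another GC box and, in part, the other strings. The windows came from RefSeq (GRCm38.p6) and run from 250 bases before to 50 after a start. Of the 10 members, 7 had a window, 12 windows in all; Klf5, Klf14 and Klf16 had none. The GC box was found for Sp1, Sp3, Klf4 and Klf13, the variant for Klf13 and the CACCC box for Sp8. Among all 32851 windows of 300 bases, of 27025 genes, 25.6% held the GC box, 8.44% the variant and 7.95% the CACCC box. Windows with a GC box had a median GC content of 64.7%, against 49.7% for those without. Windows with the variant had 63.0% and those with a CACCC box 55.0%. Of the 3 strings the GC box was thus the most frequent and lay in the most GC-rich windows. The order of GC content is in part built into the strings, since CCCGCCC holds only C and G and the others also A. The stretches of 250 bases upstream of the outermost start of Sp1 (chr15:102406066-102406315, plus strand), Klf4 (chr4:55532476-55532725, minus strand) and Klf13 (chr7:63938916-63939165, minus strand) are shown 5′ to 3′ as examples of how such boxes sit in a promoter. Capitals mark every match.
Sp1: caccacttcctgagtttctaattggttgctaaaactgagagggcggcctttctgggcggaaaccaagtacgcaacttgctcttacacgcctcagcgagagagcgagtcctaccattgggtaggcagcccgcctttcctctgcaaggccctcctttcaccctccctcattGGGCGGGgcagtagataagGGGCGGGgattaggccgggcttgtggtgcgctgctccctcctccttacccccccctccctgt
Klf4: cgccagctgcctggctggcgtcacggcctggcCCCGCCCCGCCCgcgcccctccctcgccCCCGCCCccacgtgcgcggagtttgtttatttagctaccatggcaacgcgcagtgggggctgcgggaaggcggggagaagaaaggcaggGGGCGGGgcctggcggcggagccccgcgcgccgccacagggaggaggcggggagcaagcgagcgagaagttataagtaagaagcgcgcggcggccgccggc
Klf13: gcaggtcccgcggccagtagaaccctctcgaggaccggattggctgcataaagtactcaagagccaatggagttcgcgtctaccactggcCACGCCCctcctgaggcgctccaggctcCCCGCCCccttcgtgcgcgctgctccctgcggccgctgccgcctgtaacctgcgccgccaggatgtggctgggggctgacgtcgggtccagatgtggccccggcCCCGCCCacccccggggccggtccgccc
Sp1 has 2 GC boxes, both as the reverse complement. Klf4 has 4, the first pair overlapping, in a stretch of 74.0% GC, and Klf13 has 2 and 1 variant in a stretch of 71.6% GC. A match describes letters only. The matrices used for the deposited counts were not used here, nor were peak positions, so whether the counted sites lie in promoters was not measured.

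Each deposited value is a whole number of transposase cuts in peaks that hold a given motif, and in matrices of this kind a cut is counted once for every motif found in its peak. Members with like patterns therefore share counts, although no member had exactly the same counts as any other motif across the cells. Cells were kept with a total of at least 300000 motif counts that exceeded the total of the same barcode in the other library. This left 890 of 2422 barcodes in replicate 1 and 1051 of 3033 in replicate 2, with median totals of 3519151 and 3523871 motif counts and ranges of 309159 to 23789174 and 300520 to 18595593. The libraries had 1828 barcodes in common. Of the kept cells, 872 and 925 had a copy in the other library, which the kept copy exceeded by a median of 56.5-fold and 127-fold (lowest 1.19 and 23.8), and 18 and 126 had none.

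The 10 motifs together took 7.29% of motif counts in replicate 1 and 7.26% in replicate 2 (mean 7.28% ± 0.023, SD, n = 2). SP2 led with 1.81% and 1.82% and ranked 9th of the 579 motifs. SP1 held 1.28% and 1.27%, KLF5 0.907% and 0.901%, and SP3 0.783% and 0.776%. SP1 and SP3, the general promoter factors of the family, ranked 16th and 37th. KLF16 followed with 0.733% and 0.728%, SP4 with 0.601% and 0.602%, and SP8 with 0.579% and 0.574%. KLF14 held 0.396% and 0.394%. KLF4 and KLF13 stood an order of magnitude below the SP motifs at the top: KLF4 held 0.104% and 0.102%, and KLF13 0.0944% and 0.0954%. A share rests on the number of peaks with the pattern as well as on their openness, so these levels do not order the factors by activity. No neighbours in this order overlapped between libraries, and the log2 ratio of replicate 1 to replicate 2 ran from −0.015 for KLF13 to 0.024 for KLF4. In cells whose barcode occurred in 1 library only, the sum was 7.03%.

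**Figure D1:**
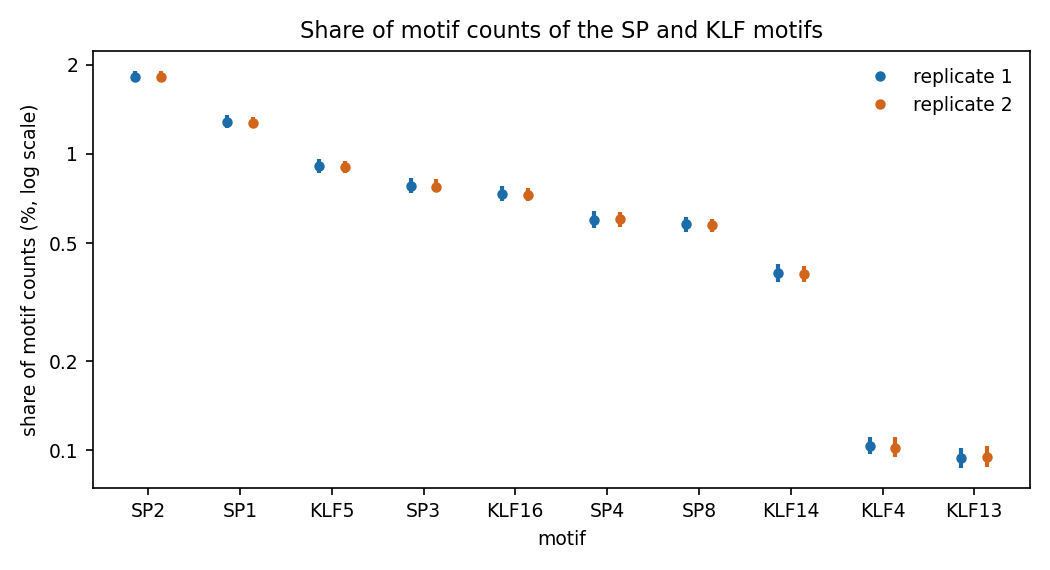
Share of motif counts (percent, log axis) of each motif in replicate 1 (blue) and replicate 2 (orange). Points are library shares and bars run from the 5th to the 95th percentile of cells; SP2 lies highest at 1.81% and 1.82%, and KLF4 and KLF13 lie near 0.1%.

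Across cells the summed share moved within narrow limits. It had a 5th percentile of 6.95%, a median of 7.29% and a 95th percentile of 7.69% in replicate 1, and 6.97%, 7.24% and 7.62% in replicate 2, with single cells from 6.17% to 10.0% and from 6.30% to 10.2%. The variation of a motif was measured by its coefficient of variation (CV) across cells after scaling to depth, less counting noise. Since 1 cut adds to several motifs, counting noise is understated, most so in shallow cells. SP2 had the lowest excess CV of the members, 3.36% ± 0.020 (SD, n = 2), followed by SP1 with 3.64% ± 0.12 and KLF4 with 3.87% ± 0.24. KLF14 had 5.94% and KLF13 6.53% ± 0.42. The median member had 4.22% in replicate 1 and 4.32% in replicate 2, against 6.19% and 6.27% for the median of all motifs. In cells whose barcode occurred in 1 library, which are shallow, the median member had 10.2%. Low values belong to motifs with many counts, so each was also set against a smooth trend of CV on mean count. In each library 9 of the 10 members exceeded that trend, as did 50.4% of all motifs. SP4 lay 0.93 above on the log2 scale, KLF14 0.85 and KLF5 0.69, whereas KLF4 lay below it by −0.22 ± 0.057. Members are not independent here, since most share counts.

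The members rose and fell together from cell to cell, with 1 exception. After the share of each motif was centred within depth bins, the median Spearman rho over the 45 pairs of members was 0.866 in replicate 1 and 0.808 in replicate 2, against a median absolute rho of 0.0921 and 0.0874 over all pairs of motifs. Among the 8 members other than KLF4 and KLF13, the 28 pairs ran from 0.797 to 0.987 and from 0.711 to 0.982. SP3 and KLF16, of the KLF subgroup that recruits the SIN3 corepressor, were the closest pair, with 0.99 and 0.98. SP1 and SP2 had 0.96 and 0.94, and SP4 and KLF14 0.94 and 0.91. KLF13, a factor known from blood cells, was looser, with 0.62 to 0.74 in replicate 1 and 0.57 to 0.72 in replicate 2 against these 8. KLF4 had 0.118 to 0.222 and 0.148 to 0.258 with the other 9. KLF4 and KLF13 had like counts: the mean count per cell was 3866 for KLF4 and 3517 for KLF13 in replicate 1, and 3716 and 3472 in replicate 2. The share of variance beyond counting noise was 76.4% and 76.3% for KLF4, and 89.3% and 89.6% for KLF13. In single-library barcodes the median over pairs was 0.868. These correlations are over cells of 1 library that share depth and peaks, and have no p.

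**Figure D2:**
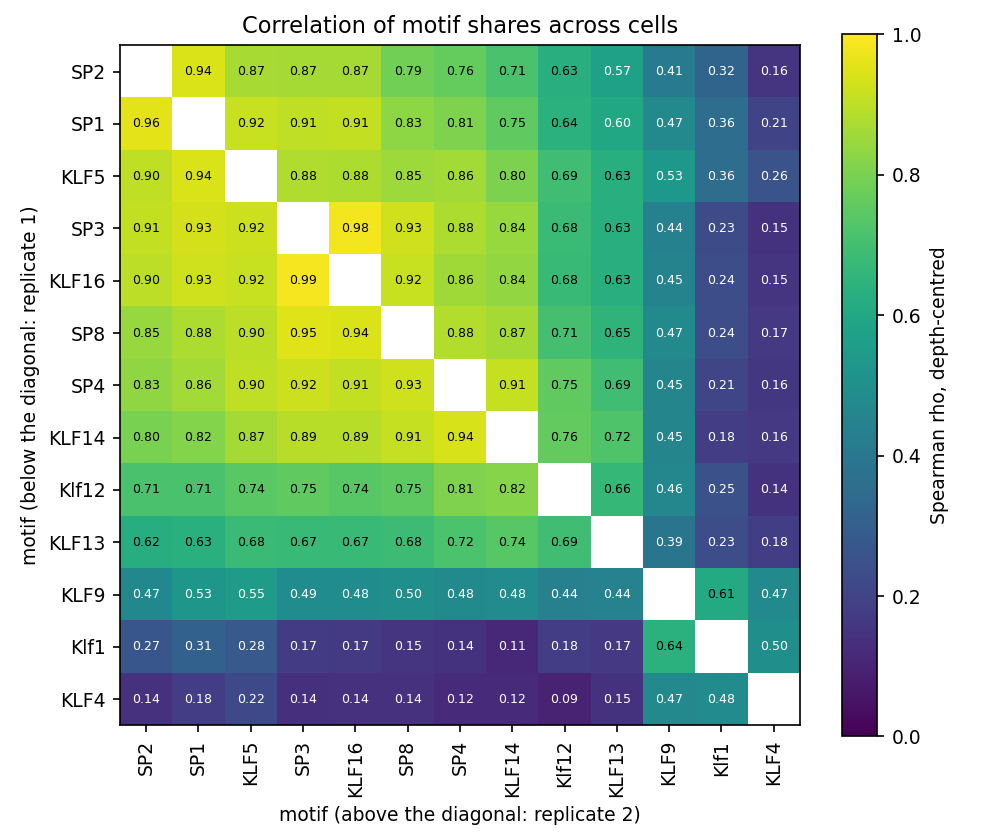
Spearman rho of depth-centred shares across cells for the 10 members and the related motifs Klf12, KLF9 and Klf1, with replicate 1 below the diagonal and replicate 2 above it; colour and printed number give rho. A block of 8 members holds high values, KLF13 is lower, and KLF4 is nearest to Klf1 and KLF9.

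Outside the members, the motifs most like their mean were those of other zinc finger factors of GC-rich sequence. Zfx stood first with rho 0.838 in replicate 1 and 0.796 in replicate 2, before Klf12 (0.794 and 0.747), ZIC4 (0.778 and 0.738), CTCFL (0.800 and 0.738) and EGR3 (0.789 and 0.724). Most opposite were homeodomain motifs: Dlx2 (−0.737 and −0.728), Nkx2-5 (−0.710 and −0.698), Dlx4 (−0.704 and −0.687), BARX1 (−0.719 and −0.676) and Dlx3 (−0.683 and −0.675). Shares of 1 total are not free of each other, so a rise of 1 set lowers the rest. Of motifs that mark core promoters, NRF1 had 0.733 and 0.709 with the member mean, the methyl-CpG binder ZBTB33 0.593 and 0.521, and YY1 0.577 and 0.552. NFYA, a subunit of the CCAAT-box factor, had 0.456 and 0.420, and 3307 and 3214 counts per cell. YY2 had 0.052 and 0.0023 but no more than 50.9 and 46.3 counts per cell, so its value cannot be set beside the others.

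KLF4 was compared with all motifs in the same way, a comparison added after its values were seen. The motifs most like it were HIC2 (0.483 and 0.513), Klf1, the erythroid factor (0.481 and 0.498), KLF9 (0.470 and 0.474), SNAI2 (0.443 and 0.460) and TBX4 (0.408 and 0.449). Klf1 and KLF9 had rho 0.64 and 0.61 with each other, while Klf12 had 0.09 and 0.14 with KLF4. With the member mean, Klf1 had 0.264 and 0.332 and KLF9 0.572 and 0.544. The KLF motifs thus did not form 1 block: KLF5, KLF14, KLF16 and Klf12 went with the SP motifs, and KLF4 had higher values with Klf1 and KLF9 than with any SP motif. KLF9 stood between: it had 0.550 and 0.532 with KLF5 and 0.527 and 0.471 with SP1, at or above its values with KLF4 but for SP1 in replicate 2.

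The next question was how the members' share relates to depth. The slope of log2 share on log2 total, in log2 units per doubling, was near 0 over all kept cells: its median over the members was −0.0016 in replicate 1 and −0.0013 in replicate 2, and over all motifs 0.0021 and 0.0016. It was negative for 9 and 8 of the 10 members, and for 40.2% and 30.9% of all motifs; KLF4 had 0.0055 and 0.0037. The median over members and libraries was −0.0138 in cells of at least 1000000 counts and −0.147 in single-library barcodes. In cells ordered by total and divided into deciles, the summed share ran from 7.24% to 7.48% in replicate 1, highest in the second shallowest, and from 7.21% to 7.35% in replicate 2, highest in the third shallowest. It was 7.27% and 7.26% in the shallowest deciles and 7.26% and 7.23% in the deepest. The mean thus changed little and not steadily with depth. The measured spread fell: the excess CV of the summed share was 8.55% and 7.86% in the shallowest deciles (median totals of 608907 and 501230). In the deepest it was 2.20% and 1.60% (6795985 and 7104200). Since 1 cut adds to several members, counting noise is understated in this sum, most so in shallow cells. How much of this fall is counting noise was not tested. The 1 in 10 cells richest in the members had a median total of 0.600 and 0.841 times that of their library, and the poorest 0.881 and 0.701 times.

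**Figure D3:**
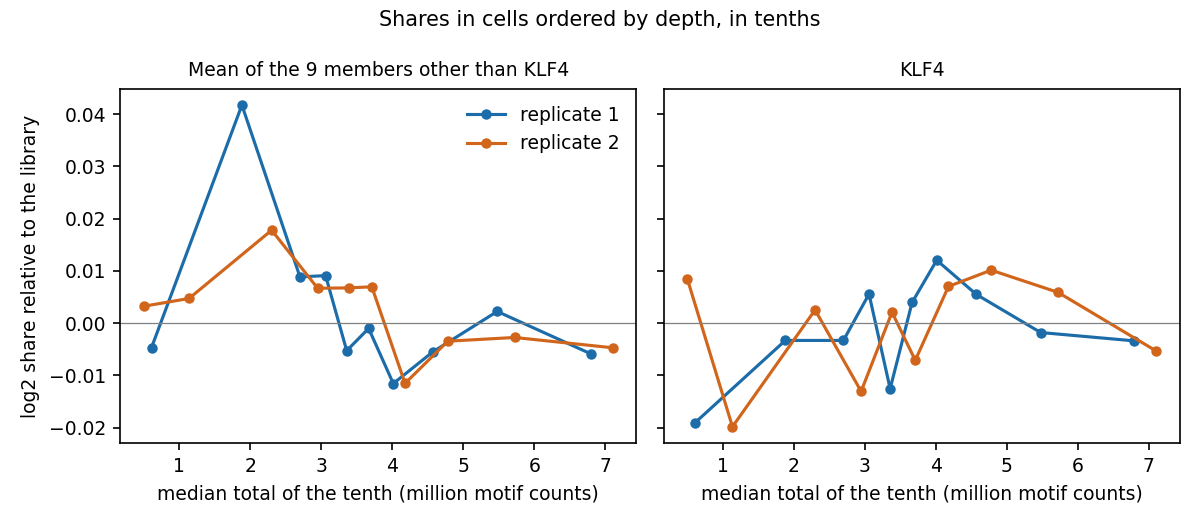
Log2 share relative to the library (y axis) in deciles of cells by total, against the median total of the decile in motif counts (x axis), for the mean of the 9 members other than KLF4 and for KLF4. Lines are the 2 libraries; the 9 members are highest in the second decile of replicate 1, where the summed share is 7.48%.

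For a test over libraries, the cells of each library were divided into 3 equal classes, counts were summed per class, and the highest class was set against the lowest with edgeR's quasi-likelihood test on all 579 motifs, with trimmed-mean (TMM) scaling, the library as a block and Benjamini-Hochberg adjustment. The fit rests on 6 sums and has 2 residual degrees of freedom, and its estimate of spread is shared over motifs. With depth as the ranking, the classes had median totals of 5332122 and 2090962 in replicate 1 and 5599970 and 1293753 in replicate 2. SP2 held 1.80% of counts in the deep class and 1.84% in the shallow class of replicate 1, and 1.81% and 1.83% in replicate 2. The deep classes lay below the shallow ones in both libraries. Of the 10 members, 9 were called lower in deep cells (adjusted p at most 0.000599), with 35.9% of all motifs called lower. The median member differed by −0.026 on the log2 scale and the median motif by −0.0023. KLF4 was the member not called, at −0.00047 (adjusted p = 1). Its sign depended on the scaling: its unscaled share was higher in deep cells in both libraries, by 0.0080 and 0.0068 on the log2 scale, and edgeR without TMM gave 0.0074, also not called. For the median member the unscaled difference was −0.021 in replicate 1 and −0.016 in replicate 2.

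The main question was how these motifs relate to progenitor and neuronal programmes. Scores were the mean log2 shares of motif lists: POU4F1 to POU4F3, the POU factors of retinal ganglion cells; 5 proneural basic helix-loop-helix (bHLH) motifs such as NEUROG2 and ATOH1; CRX, OTX1 and OTX2, of the photoreceptor lineage; SOX2, SOX3, SOX8, SOX9 and SOX10, a family in which SOX2 and SOX9 are known from retinal progenitors; and TEAD1 to TEAD4, the DNA partners of YAP in dividing progenitors. Cells were ranked by a score within bins of equal depth, so the classes of a score had nearly equal median totals, 3507928 to 3535394. Classes cut from a score are ranges and not cell types, and cells adjacent to a boundary differ little.

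All 10 SP and KLF members were lower where the SOX score was high. SP1 held 1.26% of counts in SOX-high cells, 1.28% in the middle class and 1.30% in SOX-low cells of replicate 1, and 1.25%, 1.27% and 1.29% in replicate 2. The 3 classes kept this order in both libraries without overlap, and so did the summed share, at 7.19%, 7.28% and 7.40% and at 7.16%, 7.24% and 7.38%. All 10 members were called lower in SOX-high cells by edgeR's quasi-likelihood test (adjusted p at most 0.000169), with 42.7% of all motifs called lower. With TMM scaling the median member differed by −0.047 on the log2 scale, or −3.18%, and the median motif by −0.0022. In unscaled shares the median member differed by −0.041 in replicate 1 and −0.044 in replicate 2. SP1 differed by −0.047 ± 0.0030 (SE), KLF13 by −0.049 and KLF4 by −0.020 ± 0.0045, the smallest difference of the 10. Across single cells the score and the member mean had a rho of −0.49 and −0.48. SP2 had the strongest relation of any member, −0.58 and −0.60, and KLF4 the weakest, −0.11 and −0.13. Of the motifs of the score, SOX8 differed most between the high and low classes (0.169) and Sox2 least (0.028). With the member mean, Sox2 had a rho of −0.538 and −0.464 and SOX8 of −0.199 and −0.201. SOX9 held unequal shares of the 2 libraries, 0.188% and 0.258%. For KLF4 the motifs of the score differed: its rho was 0.091 and 0.106 with Sox2 and 0.183 and 0.197 with Sox3, and −0.202 and −0.248 with SOX8, −0.125 and −0.171 with SOX9 and −0.126 and −0.103 with SOX10. Within the middle class of cells by depth the call of KLF4 was lost (−0.0077, adjusted p = 0.273 by edgeR's quasi-likelihood test).

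Of the members, 9 were also lower where the TEAD score was high. The summed share was 7.25%, 7.30% and 7.33% from TEAD-high to TEAD-low cells of replicate 1 and 7.20%, 7.25% and 7.33% in replicate 2. By edgeR's quasi-likelihood test 9 members were called lower in TEAD-high cells (adjusted p at most 0.000179), with 40.9% of all motifs called lower. The median member differed by −0.022 and the median motif by −0.00024. SP1 differed by −0.031 ± 0.0016 and SP2 by −0.029 ± 0.0015, SP4 by −0.018 ± 0.0021 and KLF14 by −0.014 ± 0.0023. In unscaled shares the libraries were unequal: SP4 differed by −0.010 in replicate 1 and −0.019 in replicate 2, KLF14 by −0.0054 and −0.014, and the median member by −0.013 and −0.023. In replicate 1 the middle class lay above the low class for SP4 (0.6024% and 0.6022%) and KLF14 (0.3972% and 0.3964%). The TEAD motifs were unequal in their rho with the member mean. TEAD1 had −0.283 and −0.333, TEAD3 −0.296 and −0.294, TEAD4 −0.188 and −0.222, but TEAD2 only −0.023 and −0.077. KLF4 was not called (0.0046 ± 0.0035, adjusted p = 0.236), and without TMM scaling it was called higher, as were 43.4% of all motifs.

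POU4F motifs, used as the measure of the ganglion cell programme, were high where 9 members were low. KLF14 held 0.390% in POU4F-high, 0.396% in middle and 0.403% in POU4F-low cells of replicate 1, and 0.389%, 0.391% and 0.401% in replicate 2. High and low classes did not overlap across libraries for this motif. The summed share was 7.23%, 7.27% and 7.37% in replicate 1 and 7.22%, 7.21% and 7.34% in replicate 2, so in replicate 2 only the lowest class stood apart. By edgeR's quasi-likelihood test 9 members were called lower (adjusted p at most 8.59e-05), with 29.5% of all motifs called lower. The median member differed by −0.027 and the median motif by −0.0014. The order of members differed from that with TEAD: KLF14 differed most, by −0.040 ± 0.0035, then SP4 by −0.037 ± 0.0033, while SP1 differed by −0.016 ± 0.0032 and SP2 by −0.013 ± 0.0031. Within the middle class of cells by depth SP1 (−0.0050, adjusted p = 0.204) and SP2 (−0.0036, adjusted p = 0.265) were no longer called, and 7 members were. The share of all motifs called there is not given, so the count of 7 has no background. Differences between members were not tested. KLF4 was not called (0.00060, adjusted p = 1).

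In deciles of cells by score, the fall was nearly steady for SOX and less so for POU4F and, in replicate 1, for TEAD. From the lowest to the highest SOX decile, the mean log2 share of the members relative to the library went from 0.037 to −0.031 in replicate 1 and from 0.042 to −0.032 in replicate 2. From the lowest to the highest POU4F decile it went from 0.033 to −0.020 and from 0.034 to −0.014. The POU4F fall lay mostly between the lowest decile and the fifth, which was at −0.0041 and −0.0065. From the lowest to the highest TEAD decile the mean went from 0.023 to −0.011 and from 0.021 to −0.011. The second TEAD decile was at 0.00075 and 0.0090, and the second SOX decile at 0.0098 and 0.014. With all of these scores the largest step between neighbours was from the lowest decile to the second. The lowest proneural decile was also above 0, at 0.015 and 0.0066.

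**Figure D4:**
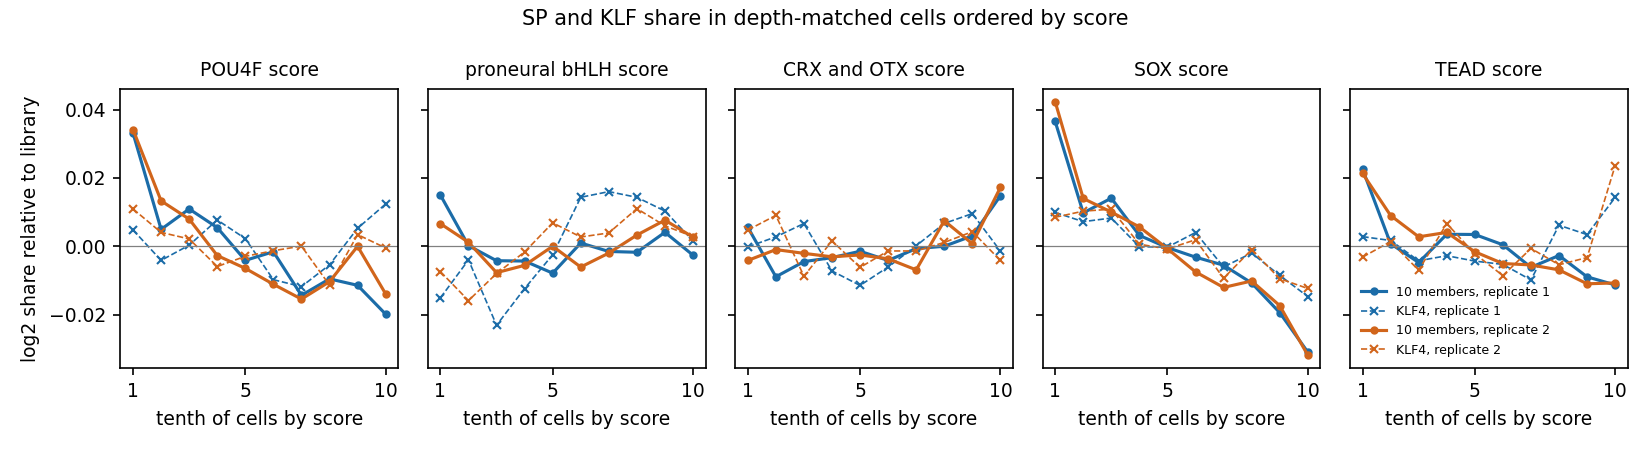
Log2 share relative to the library (y axis) in deciles of depth-matched cells by each score (x axis), for the mean of the 10 members (circles, solid) and KLF4 (crosses, dashed) in 2 libraries. The member mean runs from 0.037 and 0.042 down to −0.031 and −0.032 over the SOX deciles, and has no steady course over the proneural ones.

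With the CRX and OTX score the summed share was 7.321%, 7.275% and 7.280% from high to low cells of replicate 1. In replicate 2 it was 7.290%, 7.241% and 7.246%. The middle class thus lay below the low class in both libraries, and only the high class stood above. Of the 10 members, 6 were called higher by edgeR's quasi-likelihood test (SP1, SP2, SP3, SP8, KLF5 and KLF16; adjusted p at most 0.00457), with 22.8% of all motifs called higher. KLF16 and SP3 differed by 0.011 each. SP4 (0.0028), KLF14 (0.0029), KLF13 (0.0035) and KLF4 (−0.00018) were not called. The median member differed by 0.0081 and the median motif by −0.00027, and the rho across cells was 0.15 and 0.14. All of these differences were below 1% in relative share. The motifs of the score were unequal in their rho with the member mean. OTX1 had 0.377 in replicate 1 and 0.311 in replicate 2, against 0.028 and 0.046 for Crx and −0.016 and 0.014 for OTX2. The relation was thus not shared by the 3 motifs of the score.

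With the proneural score the direction depended on the scaling. The summed share was 7.29% in high and 7.31% in low cells of replicate 1, and 7.28% and 7.26% in replicate 2, so the libraries went opposite ways. With TMM scaling edgeR's quasi-likelihood test called 6 members higher (SP1, SP2, SP3, KLF4, KLF5 and KLF16; adjusted p at most 0.0350), with 38.7% of all motifs called higher, and the median member at 0.0067 was close to the median motif at 0.0049. Without TMM it called 2 higher and 1 lower (29.7% and 34.2% of all motifs), the median member was −0.00028, and KLF16, called higher before, was at −0.00075. The member called lower without TMM was KLF14 (−0.011, adjusted p = 0.0229). SP8 (0.0040), KLF13 (0.0016), SP4 (0.00019) and KLF14 (−0.0045) were not called with TMM. Over all motifs, 224 were called higher and 135 lower with TMM, and 172 and 198 without. KLF4 was the member with the largest difference, 0.027 ± 0.0032 (adjusted p = 0.000126). It held 0.105% in high and 0.103% in low cells of replicate 1, and 0.103% and 0.101% in replicate 2, above in both. The motifs of the score differed in their rho with KLF4. NEUROD1 had 0.252 and 0.241, Neurog1 0.190 and 0.061, and NEUROD2 0.129 and 0.023. Atoh1 had 0.090 and −0.017, and NEUROG2 −0.027 and −0.087, so the relation was not shared by all motifs of the score. Klf1 (0.059 ± 0.0039) and KLF9 (0.039 ± 0.0025), related to KLF4, were also called higher, and Klf12 (−0.0047) was not called.

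**Figure D5:**
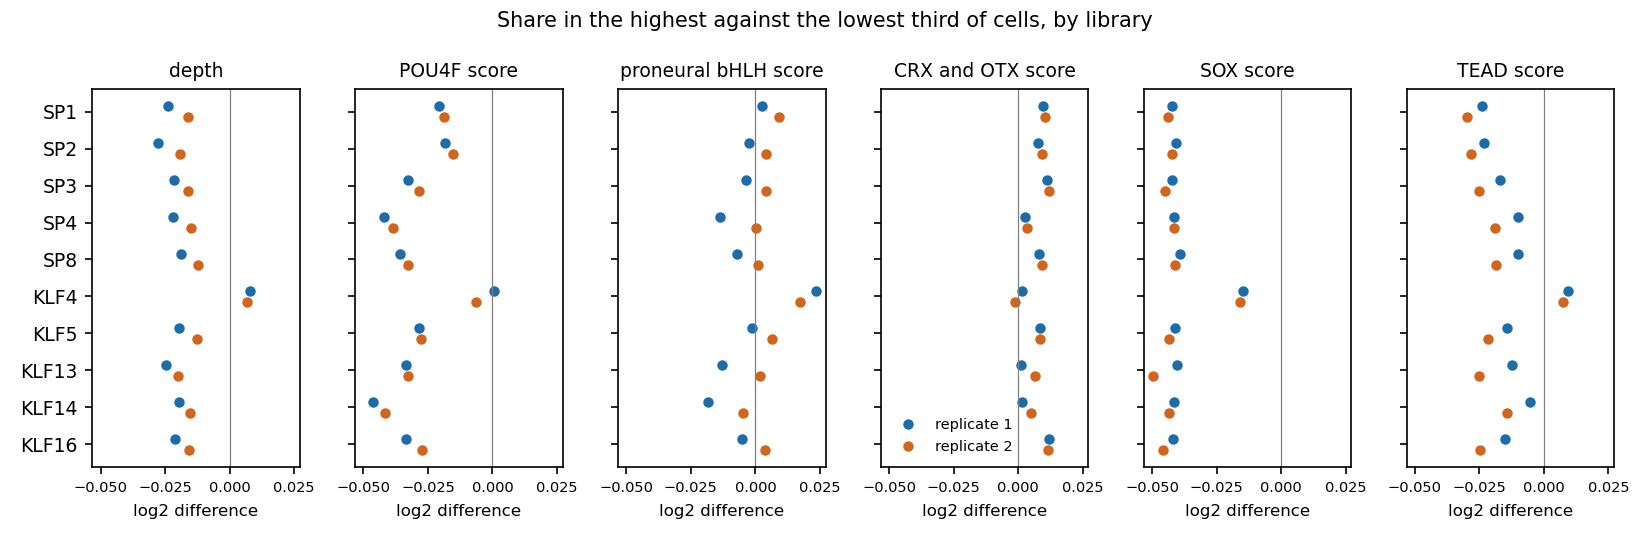
Log2 difference in share between the highest and the lowest of 3 classes of cells (x axis) for each member (y axis), by depth and by 5 scores, in each library, without TMM scaling. All members lie left of 0 for the SOX score, and 9 of 10 in both libraries for the TEAD and POU4F scores (KLF4 with POU4F is at 0.00052 in replicate 1 and −0.0066 in replicate 2), and points lie on both sides of 0 for the proneural score.

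Most motifs of the other KLF, EGR, core promoter and CTCF lists took the members' direction with the SOX, TEAD and POU4F scores and with depth. With the CRX and OTX score and the proneural score most were not called. With the SOX score, the 3 other KLF motifs (Klf1, KLF9 and Klf12), all 4 EGR motifs, 5 of 6 core promoter motifs and both CTCF motifs were called lower, with NRF1 at −0.069 ± 0.0040 and ZBTB33 at −0.077 ± 0.0057. With the TEAD score the same counts were called lower. With the POU4F score 2 of the 3 other KLF motifs were called lower and 1, Klf1, higher (0.023 ± 0.0047), and 3 of 4 EGR, 5 of 6 core promoter and both CTCF motifs were called lower. With depth, 3 of 3, 4 of 4, 5 of 6 and 2 of 2 were called lower. With the CRX and OTX score 1, 2, 1 and 1 of these lists were called higher and none lower, and with the proneural score 2, 0, 1 and 1. Of all motifs 42.7% were called lower with SOX, 40.9% with TEAD, 29.5% with POU4F and 35.9% with depth. Called higher were 22.8% of all motifs with the CRX and OTX score and 38.7% with the proneural score. The members' differences were therefore not shown to be particular to SP and KLF motifs.

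Without the library as a block, the SOX result kept most of its calls. In that fit edgeR called 9 members lower with the SOX score (10.9% of all motifs), 2 with TEAD (11.2%) and 1 with POU4F (0.345%). It called 0 members lower with depth (0% of all motifs), where 8 members had an unadjusted p below 0.05, as did 122 of the 579 motifs. It called 0 members higher with the CRX and OTX score (0%) and with the proneural score (4.84%). There 0 members had an unadjusted p below 0.05, against 68 and 101 of the 579 motifs. DESeq2 with the block called 9 members lower with depth (28% of all motifs) and 6 higher with the CRX and OTX score (20.9%), and with the proneural score 2 higher (30.4%) and 1 lower (30.2%). When the highest decile was set against the lowest with edgeR, 0 members were called in any of the 6 contrasts. The median member was at −0.087 with SOX, −0.051 with TEAD, −0.049 with POU4F and 0.025 with the CRX and OTX score. These medians were farther from 0 than between the 3 classes. With depth the median shrank from −0.026 to −0.0064, and with the proneural score it turned from 0.0067 to −0.0091. In the 6 contrasts 0 to 8 members had an unadjusted p below 0.05, as did 17 to 146 of all motifs. Of all motifs 3.63% were called higher with the CRX and OTX score and 0% in the other contrasts. In the 18 and 126 cells whose barcode occurred in 1 library only, 9 members were called lower with the POU4F score (14.2% of all motifs), 9 with SOX (8.29%) and 8 with TEAD (8.81%). In these cells 0 were called with depth, the proneural score or the CRX and OTX score (0% of all motifs). There 9, 8 and 8 members had an unadjusted p below 0.05, as did 47, 67 and 31 of the 579 motifs. The median member with the CRX and OTX score was −0.069, opposite to its direction in all kept cells.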

How the data were processed

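Per the file headers, each library was deposited as a matrix of raw counts of 579 motifs by barcode, written by software version 1.1.0; Cell Ranger and mm10 are named in the submitters' processing notes. For peak calling and motif search no settings are known here. All samples form 1 group, named by the labels. The 10 members, the lists and the tests were chosen with earlier results of these data known. Cells needed at least 300000 counts and the deeper copy of a shared barcode; no doublet caller was run, and leaving out the deepest 5% was an alternative. Depth centring and matching used 20 bins per library, on log2(counts per 10000 + 1). Sums per library and class were tested with edgeR 4.0.16 (R 4.3.3; glmQLFit, TMM, library block, at least 10 counts in 2 of 6 sums; adjusted p below 0.05), and with DESeq2 1.42.0 as an alternative. The classes of a contrast come from the same library, which the block takes into account. The SE was derived from the F statistic, and is not given where that was not positive. Scripts were tested on simulated data. Motifs named besides the members were those of 4 lists (other KLF, EGR, core promoter, CTCF) the 5 most like and the 5 most opposite to the member mean, the motifs of the 5 scores and, chosen after its values were seen, the 5 most like KLF4. Other settings tried are given in the closing section.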

Additional observations from a re-analysis of the deposited data

Results flagged for a closer look

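The barcodes left out of all comparisons (1532 in replicate 1 and 1982 in replicate 2, too shallow or the shallower copy of a shared barcode) also held counts of the members. Their summed share was 7.1927% in replicate 1 (Wilson 95% interval 7.186 to 7.199%) and 7.22727% in replicate 2 (7.222 to 7.232%), against 7.29% and 7.26% in the kept cells. There are no control samples. These barcodes held 57873148 and 106916585 motif counts in all, so a summed share above 0 was given in advance and says nothing about the members. The intervals cover counting error only, and motif counts are not independent cuts. Why barcodes with so few counts have nearly the share of the kept cells was not tested.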

How the results depend on the processing

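Member shares summed to 7.03% in cells whose barcode occurs in 1 library and to 7.85 per 100 counts of motifs outside the members (7.26 to 7.29% with 1 library left out). The median excess CV was 3.64% in cells of at least 1000000 counts, 10.2% in single-library barcodes, 4.35% without the deepest 5% and 2.76% within the middle class of depth (4.22 to 4.32% with 1 library left out). The median pairwise correlation was 0.921 as Pearson's r (0.808 to 0.866 with 1 library left out). The median depth slope was −0.0138, −0.147 and −0.00089 in the first 3 of those cell sets and −0.0017 with the other denominator (−0.0016 to −0.0013 with 1 library left out).

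Counts of called members, in the direction named in the report, fell as follows. With no replicate block they were 0 for depth, 1 for POU4F, 0 for proneural, 0 for CRX and OTX, 9 for SOX and 2 for TEAD. With the highest against the lowest decile they were 0 in all 6. In the same order, edgeR's quasi-likelihood test gave an unadjusted p below 0.05 in 0, 3, 0, 0, 1 and 8 members. Over all motifs it did so in 29, 17, 20, 146, 19 and 66. The medians grew to −0.049 for POU4F, 0.025 for CRX and OTX, −0.087 for SOX and −0.051 for TEAD, but shrank to −0.0064 for depth. In single-library barcodes they were 0 for depth, proneural, and CRX and OTX. For the proneural score they were 2 without TMM (29.7% of all motifs) and 2 with DESeq2 (30.4%). They were also 2 with totals outside the members, 2 in cells thinned to 1000000 counts and 2 without depth matching. For these other settings the share of all motifs called is not given here, so the counts have no background. The classes of single-library barcodes hold 6 cells in replicate 1, and deciles hold fewer cells than the 3 classes; otherwise the cause was not tested.

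The proneural direction reversed most. Its median was −0.00028 without TMM, −0.00026 with totals outside the members, −0.0044 without replicate 2 and 0.0039 without replicate 1, −0.0091 in deciles and −0.11 in single-library barcodes. KLF16 was at −0.00075 without TMM, −0.00072 with totals outside the members, −0.00046 thinned and −0.00011 without depth matching, and SP4 at −0.0098 thinned. Without replicate 2, SP2, KLF5, KLF16 and SP3 were at −0.0026, −0.0015, −0.0052 and −0.0037, and without replicate 1 at 0.0040, 0.0066, 0.0037 and 0.0040. In deciles, SP2, SP1, KLF5, KLF16 and SP3 were at −0.0080, −0.0030, −0.0085, −0.0093 and −0.0089, and in single-library barcodes at −0.087, −0.091, −0.13, −0.10 and −0.10. With the CRX and OTX score, single-library barcodes gave a median of −0.069 and SP2, SP1, KLF5, KLF16, SP3 and SP8 at −0.059, −0.059, −0.088, −0.060, −0.068 and −0.070. Other settings went the opposite way. Within the middle class of cells by depth the median was 0.019 with the proneural score and 0.018 with CRX and OTX, with 8 members called higher in each. Without the deepest 5% of cells the CRX and OTX median was 0.014, with 9 called higher. The shares of all motifs called there are not given, so these counts have no background. Under every alternative run, the members' median stayed below 0 for depth, POU4F, SOX and TEAD (−0.144 to −0.0064 for depth, −0.154 to −0.020 for POU4F, −0.133 to −0.036 for SOX and −0.087 to −0.013 for TEAD). Of these, single libraries, in unscaled shares, gave −0.016 for depth without replicate 1 and −0.013 for TEAD without replicate 2, against −0.026 and −0.022.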
